A study of Mus musculus with 8 samples.

Results

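The 9 genes described here encode parts of the signalling systems that set vascular tone: Ace and Agtr1a of the angiotensin system; Edn1, Ece1 and Ednra of the endothelin system; Nos3, Gucy1a1 and Gucy1b1 of nitric oxide signalling; and Npr3 of the natriuretic peptide system. They were named one by one, with earlier results of these data known. All were found among the 27179 genes of the count table and were set against 44 further genes of the same 4 systems. The table came from bulk RNA-seq of cells sorted from the lungs of C57BL/6 mice (C57BL/6J in the methods of the study) carrying Eml4-Alk tumors. The Eml4-Alk rearrangement, called a translocation in the labels, was induced by adenovirus carrying Cas9 and guide RNAs given into the trachea, and the mice were 18 to 22 weeks old, 11 to 12 weeks after induction. Every animal received 4.5 nmol of QZ1-(PEG2K) intravenously 2 h before the lungs were taken. QZ1 is a quenched Cy5 probe with the S1 protease substrate as its linker, so that cleavage releases a fluorescent, cell-binding fragment. Live CD45-/CD11b- cells were split by that fluorescence into QZ1-hi and QZ1-lo, with 4 libraries of each. Both groups therefore shared the tumor, the probe and the exclusion of CD45+ and CD11b+ cells, and QZ1-lo was the other end of the sort rather than a healthy control. No source used here gives the purity of either fraction.

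The angiotensin-converting enzyme, encoded by Ace, cuts angiotensin I to the constrictor angiotensin II on the luminal face of vessels and is classically rich in lung capillary endothelium; the type 1 receptor, encoded by Agtr1a, receives it on smooth muscle, pericytes and related mesenchymal cells. Endothelin-1 is made as a precursor from Edn1, matured by the protease encoded by Ece1, and read by the receptor encoded by Ednra on contractile cells. Against these, endothelial nitric oxide synthase (Nos3) makes a diffusible gas that activates soluble guanylate cyclase, a dimer of the alpha subunit Gucy1a1 and the beta subunit Gucy1b1, and the resulting cGMP relaxes the contractile cell. The receptor encoded by Npr3 clears natriuretic peptides, which raise cGMP through separate receptors.

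The promoter sequence was considered first for genes at both ends of the comparison. The RefSeq promoter table used here (GRCm38.p6) was matched for 7 of the 9 genes. The 250 bases upstream of a start are shown for Ace, the gene with the highest level in QZ1-hi, with its second annotated start, for Gucy1b1, which had the largest fold change of the tested members, and for Edn1, which did not pass the test. The Ace windows lie at chr11:105967698-105967947 and chr11:105974939-105975188 on the plus strand, that of Gucy1b1 at chr3:82074712-82074961 on the minus strand, and that of Edn1 at chr13:42301226-42301475 on the plus strand. Each is written 5′ to 3′ along the gene, and capitals mark the letters of a searched motif on either strand.
Ace start 1: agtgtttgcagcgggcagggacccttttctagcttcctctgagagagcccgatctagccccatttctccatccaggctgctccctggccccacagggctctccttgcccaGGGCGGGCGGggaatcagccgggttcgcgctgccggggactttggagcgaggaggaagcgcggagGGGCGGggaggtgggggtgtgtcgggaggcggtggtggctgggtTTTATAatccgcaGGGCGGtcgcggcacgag
Ace start 2: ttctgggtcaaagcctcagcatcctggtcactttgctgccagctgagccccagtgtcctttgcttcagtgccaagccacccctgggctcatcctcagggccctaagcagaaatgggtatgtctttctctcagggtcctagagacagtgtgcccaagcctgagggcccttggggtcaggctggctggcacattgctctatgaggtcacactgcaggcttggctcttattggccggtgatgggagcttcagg
Gucy1b1: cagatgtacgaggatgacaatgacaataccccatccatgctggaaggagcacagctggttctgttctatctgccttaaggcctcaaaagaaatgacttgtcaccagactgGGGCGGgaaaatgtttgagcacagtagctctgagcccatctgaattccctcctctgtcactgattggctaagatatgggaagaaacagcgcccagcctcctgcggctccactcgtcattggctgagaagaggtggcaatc
Edn1: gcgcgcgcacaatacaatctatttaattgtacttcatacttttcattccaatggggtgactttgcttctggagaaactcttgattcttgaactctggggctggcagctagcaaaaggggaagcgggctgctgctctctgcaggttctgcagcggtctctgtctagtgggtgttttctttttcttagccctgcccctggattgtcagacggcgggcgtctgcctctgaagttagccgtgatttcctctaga
The search covered 6 motifs on both strands. They were the AP-1 element, spelled TGANTCA, the site bound by GATA factors, spelled AGATAA, and an extended site of ETS factors, spelled ACCGGAA. The others were the SP box, spelled GGGCGG, the TATA box, spelled TATAAA, and the E-box, spelled CACGTG. Shorter forms of these sites, such as the core of the ETS site, were not searched. The first Ace window held 4 SP matches, of which 2 overlap each other, and a TATA match on the opposite strand 31 bases before the start. Its GC content was 67.2%, against a median of 52.4% over 32851 promoters of the same length. SP matches occurred in 32.7% and TATA matches in 12.4% of those promoters. The second Ace start, at position 105975189, lies in intron 12 of the 25-exon transcript, and its window held none of the 6 motifs. Counts per gene do not separate the starts. The Gucy1b1 window held a single SP match 140 bases before the start, and the Edn1 window held none. The AP-1, GATA and ETS letters as spelled above, present in 6.75%, 9.99% and 2.90% of all promoters, were in none of these windows. That does not speak to shorter or variant sites.

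Libraries held 18380918 to 26847938 counts, of which 8711742 to 16311828 lay outside mitochondrial and ribosomal RNA genes. That excluded share was 44.0% to 65.8% in QZ1-hi and 34.3% to 53.5% in QZ1-lo (exact two-sided permutation p = 0.114). Levels below are CPM, the counts of a gene relative to all counts of its library, on TMM-scaled library sizes, given in the order of replicates 1 to 4, and 3 counts correspond to 0.0894 to 0.179 CPM. A gene was called at an edgeR quasi-likelihood adjusted p under 0.05 over 15583 tested genes. Across all of them 9.88% were higher and 8.21% lower in QZ1-hi, and the libraries of the groups did not overlap, with QZ1-hi higher, for 11.9%. All markers of endothelium on a list of 8 were higher in QZ1-hi, with summed levels of 679.2 to 1659 CPM against 57.1 to 235.1 CPM in QZ1-lo. Of 8 fibroblast markers 7 were higher (1587 to 3062 against 38.9 to 358 CPM), and of 8 pericyte markers 3 were higher (57.3 to 86.1 against 10.4 to 27.03 CPM). The part of fibroblasts in the differences below was not tested, levels relative to the endothelial and pericyte markers are given further on, and in such sorted bulk fractions more cells of a type and more RNA per cell cannot be told apart.

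Ace, Ednra, Nos3, Gucy1a1, Gucy1b1 and Npr3 were higher in QZ1-hi, by 5.61-fold to 13.1-fold, while Edn1 and Ece1 did not pass the test. Agtr1a, the ninth, was below the count filter and was counted almost only in QZ1-hi. In each of the 6 called genes, and in Agtr1a, the lowest QZ1-hi value exceeded the highest QZ1-lo value (exact two-sided permutation p = 0.0286 for each, the smallest that 70 assignments allow). That p restates the absence of overlap. Over all genes that passed the filter, 9.88% were called higher and 11.9% were higher in QZ1-hi without overlap. Ednra and Gucy1b1 were over the filter's minimum in all 4 QZ1-hi libraries but in only 2 QZ1-lo libraries, so they entered the test largely through the group in which they were high.

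**Figure D1:**
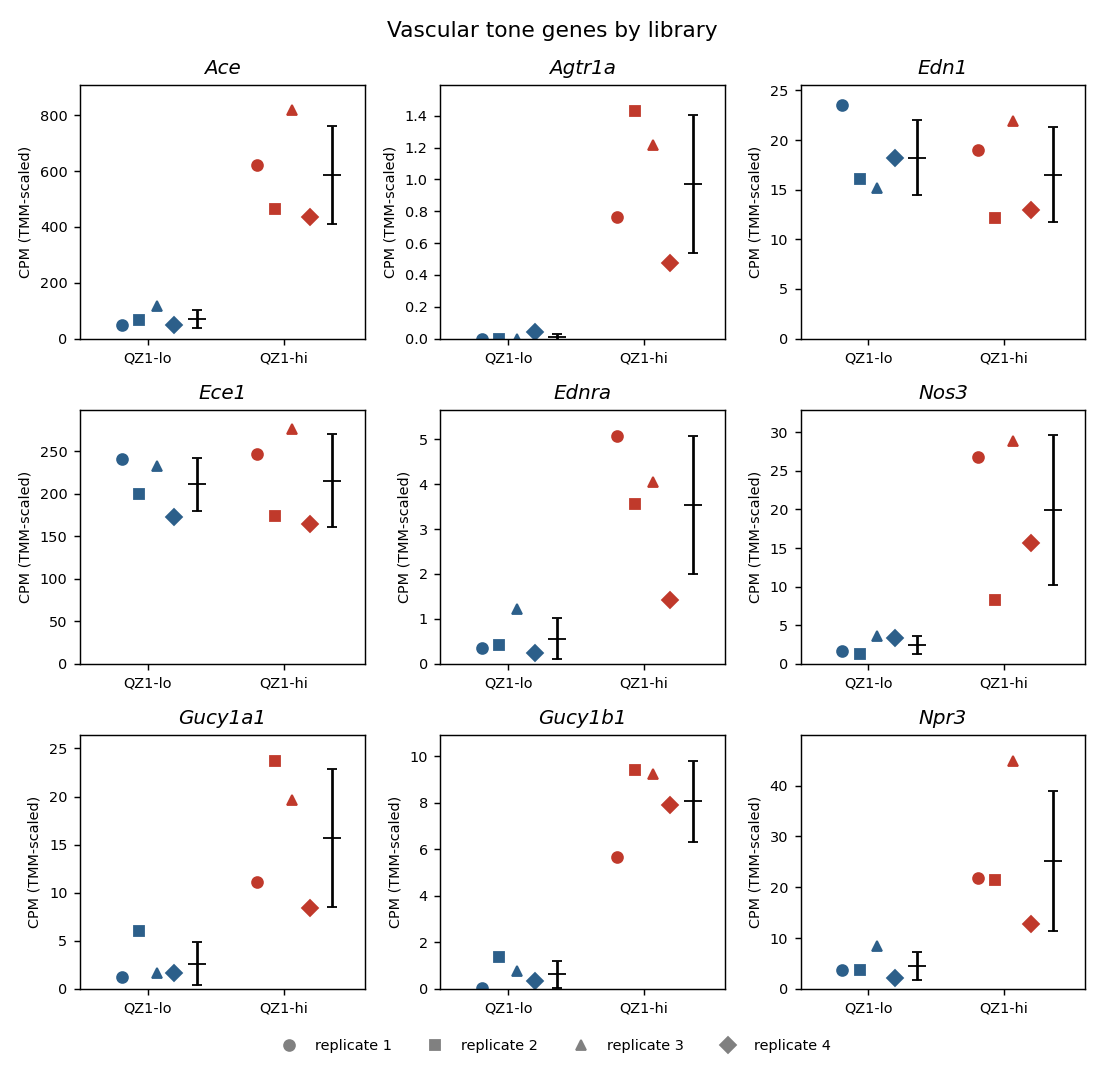
CPM of each of the 9 genes by library, QZ1-lo in blue and QZ1-hi in red, with the marker shape giving the replicate number and the black bars the mean ± SD of 4 libraries; each panel has its own linear axis from 0. The groups are separate in every panel except those of Edn1 and Ece1, where they overlap.

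Ace, on the plus strand at chr11:105967945-105989964, was the most abundant of the 9 in QZ1-hi. Its levels were 623.1, 464.3, 817.9 and 435.5 CPM in QZ1-hi and 49.3, 66.4, 118.2 and 48.1 CPM in QZ1-lo. The lowest QZ1-hi library was above the highest QZ1-lo library, which was replicate 3. Group means, given here and below ± SD over n = 4, were 585.2 ± 176 against 70.5 ± 32.9 CPM, and the log2 fold change was 3.05 (SE 0.32, edgeR adjusted p = 0.000278), or 8.30-fold.

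Agtr1a, on the plus strand at chr13:30336441-30382867, had the lowest counts of the 9. The QZ1-hi libraries held 18, 29, 21 and 8 counts, and the QZ1-lo libraries held 0, 0, 0 and 1. Thus 3 of the 4 QZ1-lo libraries had none, which at their depth allows a level up to the 3-count limit. The summed 76 against 1 counts gave a ratio of 107.5 after scaling for library size, with an exact Clopper-Pearson 95% interval of 18.7 to 4300 that covers counting error only. With no filter, the edgeR log2 fold change was 6.05 (SE 1.33, edgeR adjusted p = 0.00576), a value that depends on the prior count. In that fit 7.31% of 21271 genes were called higher. The paralog Agtr1b was at 0 in all 8 libraries; it shares 1.13% of the 50-base stretches of Agtr1a, so few reads could be split between the pair.

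Edn1, on the plus strand at chr13:42301476-42307990, encodes the endothelin-1 precursor and was at 19.0, 12.2, 22.0 and 12.9 CPM in QZ1-hi and 23.5, 16.1, 15.2 and 18.2 CPM in QZ1-lo. The groups overlapped, and the highest library was a QZ1-lo and the lowest a QZ1-hi library. The means were 16.5 ± 4.76 and 18.2 ± 3.75 CPM, with a log2 fold change of -0.14 (95% interval -0.64 to 0.35, edgeR adjusted p = 0.742). Without QZ1-lo replicate 1, its highest library, the log2 fold change was 0.0040.

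Ece1, on the plus strand at chr4:137862237-137965229, encodes the endothelin-converting enzyme. It was at 246.4, 173.6, 275.6 and 164.5 CPM in QZ1-hi and at 240.2, 199.0, 232.1 and 172.4 CPM in QZ1-lo. Its means of 215.0 ± 54.5 and 210.9 ± 31.3 CPM differed by less than the spread between libraries of either group. The log2 fold change was 0.03 (95% interval -0.38 to 0.43, edgeR adjusted p = 0.946), and it turned negative without QZ1-hi replicate 1 (-0.04), QZ1-hi replicate 3 (-0.14) or QZ1-lo replicate 4 (-0.06).

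Ednra, on the minus strand at chr8:77663031-77724464, encodes the endothelin A receptor. Its QZ1-hi libraries were at 5.09, 3.56, 4.05 and 1.43 CPM and its QZ1-lo libraries at 0.358, 0.407, 1.23 and 0.246 CPM. The groups were separated by a narrow gap, between QZ1-hi replicate 4 and QZ1-lo replicate 3. The means were 3.53 ± 1.54 against 0.560 ± 0.452 CPM, a log2 fold change of 2.64 (SE 0.62, edgeR adjusted p = 0.0116), or 6.25-fold. Without QZ1-lo replicate 3 the log2 fold change was 3.37. Ednrb, the endothelin B receptor that is also a marker of lung aerocytes, was higher as well (18.1 ± 8.87 against 2.59 ± 2.76 CPM, log2 fold change 2.80, SE 0.78, edgeR adjusted p = 0.0276), and its call depended on single libraries. The adjusted p was 0.0539 without QZ1-hi replicate 1, 0.0629 without QZ1-lo replicate 1, 0.0579 without QZ1-lo replicate 2 and 0.0766 without QZ1-hi replicate 3, and the log2 fold change was 3.70 without QZ1-lo replicate 3. The ratio of Ednra to Ednrb per length overlapped between the groups, at 0.106 to 0.206 in QZ1-hi and 0.0939 to 1.56 in QZ1-lo. The upper end, in QZ1-lo replicate 4, rests on 6 counts of Ednra and 3 of Ednrb.

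Nos3, on the plus strand at chr5:24364810-24384474, encodes endothelial nitric oxide synthase. Its levels were 26.8, 8.30, 28.9 and 15.7 CPM in QZ1-hi and 1.67, 1.30, 3.66 and 3.27 CPM in QZ1-lo. QZ1-hi replicate 2 was the lowest of its group and was still above all QZ1-lo libraries. The means were 19.9 ± 9.69 against 2.48 ± 1.16 CPM, a log2 fold change of 3.01 (SE 0.44, edgeR adjusted p = 0.000964), or 8.05-fold. The overlaps of its exons with Atg9b and Gm15587, genes on the opposite strand, add up to 32.3% of its exon bases. A base under both genes counts for each, so the covered share may be smaller. The strand setting of the counting is not given in the sources used here. Atg9b differed in the other direction, at 1.39 ± 0.363 CPM in QZ1-hi and 6.92 ± 1.13 CPM in QZ1-lo (log2 fold change -2.30, edgeR adjusted p = 0.000609).

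Gucy1a1 and Gucy1b1, the alpha and beta subunits of soluble guanylate cyclase, are neighbours on the minus strand, at chr3:82092427-82145789 and chr3:82032006-82074689, 17.7 kb apart. Gucy1a1 was at 11.1, 23.7, 19.6 and 8.40 CPM in QZ1-hi and 1.22, 6.02, 1.63 and 1.64 CPM in QZ1-lo. Gucy1b1 was at 5.68, 9.43, 9.25 and 7.93 CPM in QZ1-hi and 0.0298, 1.38, 0.760 and 0.327 CPM in QZ1-lo. Both were highest within QZ1-lo in replicate 2, and the lowest Gucy1b1 value, in QZ1-lo replicate 1, was 1 count against 134 in QZ1-hi replicate 1. The means were 15.7 ± 7.16 against 2.63 ± 2.27 CPM for Gucy1a1 (log2 fold change 2.59, SE 0.52, edgeR adjusted p = 0.00551) and 8.07 ± 1.73 against 0.625 ± 0.588 CPM for Gucy1b1 (log2 fold change 3.71, SE 0.68, edgeR adjusted p = 0.00324). These are 6.01-fold and 13.1-fold. Without QZ1-lo replicate 2 the log2 fold changes were 3.39 and 4.45. The ratio of alpha to beta per length was 0.598 to 1.42 in QZ1-hi and 1.21 to 23.1 in QZ1-lo, where the upper end rests on that single count.

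Npr3, on the minus strand at chr15:11839896-11907287, encodes the natriuretic peptide clearance receptor. Its levels were 21.8, 21.4, 44.9 and 12.8 CPM in QZ1-hi and 3.64, 3.78, 8.40 and 2.13 CPM in QZ1-lo. Replicate 3 was the highest of either group and replicate 4 the lowest of either group, and the groups did not overlap. The means were 25.2 ± 13.8 against 4.49 ± 2.71 CPM, a log2 fold change of 2.49 (SE 0.45, edgeR adjusted p = 0.00302), or 5.61-fold.

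Per kilobase of exon, the scale on which levels of different genes can be compared, Ace and Ece1 exchanged places between the groups. In QZ1-hi, Ace stood at 110.7 ± 33.2 CPM per kb and Ece1 at 40.6 ± 10.3; in QZ1-lo, Ece1 stood at 39.8 ± 5.90 and Ace at 13.3 ± 6.22. These pairs did not overlap in either group. Edn1 came next in both, at 7.72 ± 2.23 and 8.53 ± 1.75 CPM per kb. Below it the order in both groups was Nos3 (4.82 and 0.599), Npr3 (2.69 and 0.478), Gucy1a1 (2.25 and 0.377), Gucy1b1 (2.06 and 0.159), Ednra (0.645 and 0.102) and Agtr1a (0.349 and 0.00367). Most of those neighbours overlapped, and the remaining clear steps were from Ece1 to Edn1 and from Gucy1b1 to Ednra in QZ1-hi, and from Edn1 to Nos3 and from Ednra to Agtr1a in QZ1-lo.

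Of the other 44 listed genes of the 4 systems, 32 were tested, of which 7 were higher in QZ1-hi, 2 were lower and 23 were not called, and their median log2 fold change was 0.41 against 0.02 over all genes tested. The 8 tested members had a median of 2.62, but they and the lists were chosen with earlier results of these data known. Over all genes tested, 9.88% were higher and 8.21% lower, so the 2 lower genes are near that share. Of the nitric oxide and cGMP genes, 5 of 17 tested were higher and 1 was lower. Downstream of the cyclase, the cGMP-dependent kinase genes Prkg1 (5.18 ± 0.838 against 0.401 ± 0.370 CPM, log2 fold change 3.69, edgeR adjusted p = 0.00517) and Prkg2 (3.65 ± 2.45 against 0.219 ± 0.203 CPM, log2 fold change 4.00, edgeR adjusted p = 0.00480) were higher. Without QZ1-lo replicate 1 the log2 fold change of Prkg2 was 4.74. Pde5a, the phosphodiesterase that breaks down cGMP, was at 23.9 ± 9.47 against 4.204 ± 2.92 CPM (log2 fold change 2.50, edgeR adjusted p = 0.00752). Prkg1 was over the filter's minimum in 2 and Prkg2 in 1 of the 4 QZ1-lo libraries, against all 4 in QZ1-hi, so that both entered the test largely through QZ1-hi.

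Near Nos3 in the pathway, Nostrin, whose product traffics the synthase, was higher (29.2 ± 8.71 against 6.16 ± 1.52 CPM, log2 fold change 2.24, edgeR adjusted p = 0.000278), as was Ddah1, which degrades an endogenous inhibitor of nitric oxide synthases (11.7 ± 6.85 against 2.37 ± 1.35 CPM, log2 fold change 2.31, edgeR adjusted p = 0.00731). Slc7a1, a transporter of the substrate arginine, was lower (16.8 ± 4.49 against 29.4 ± 7.0 CPM, log2 fold change -0.81, edgeR adjusted p = 0.0287). Its adjusted p was 0.0866 without QZ1-lo replicate 1, 0.0722 without QZ1-hi replicate 3, 0.0748 without QZ1-lo replicate 3 and 0.0773 without QZ1-hi replicate 4. The inducible synthase Nos2, at 8.603 ± 5.35 against 2.59 ± 1.82 CPM, did not pass the test (log2 fold change 1.72, edgeR adjusted p = 0.0521) but did so without QZ1-lo replicate 1 (log2 fold change 2.34, edgeR adjusted p = 0.0155) and without QZ1-hi replicate 4 (edgeR adjusted p = 0.0194). The alternative alpha subunit Gucy1a2 had groups that did not overlap, at 10.1 ± 1.28 against 3.38 ± 2.54 CPM, and an edgeR adjusted p of 0.0651, with 0.0427 without QZ1-lo replicate 1 and 0.0333 without QZ1-lo replicate 2. The neuronal synthase Nos1 had 2 counts in 1 library and 0 in the others.

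Among the other angiotensin genes, none of 7 tested was higher and Enpep, the aminopeptidase that trims angiotensin II, was lower (67.2 ± 16.8 against 125.9 ± 30.0 CPM, log2 fold change -0.90, edgeR adjusted p = 0.00961). Over all genes tested, 9.88% were higher and 8.21% lower. The counts in this paragraph, out of 7, 3 and 5 genes, are too small to set apart from those shares. The substrate gene Agt was near 0, with 3 counts in QZ1-hi replicate 4, 17 in QZ1-lo replicate 2, 1 in QZ1-lo replicate 4 and 0 in the remaining libraries. Ednrb was the 1 gene called of 3 further endothelin genes tested. In the natriuretic group 1 of 5 was called: Npr1, a guanylate cyclase receptor, was at 62.5 ± 14.7 against 26.3 ± 3.91 CPM (log2 fold change 1.25, SE 0.18, edgeR adjusted p = 0.000823), with a ratio of Npr3 to Npr1 per length that overlapped between the groups.

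**Figure D2:**
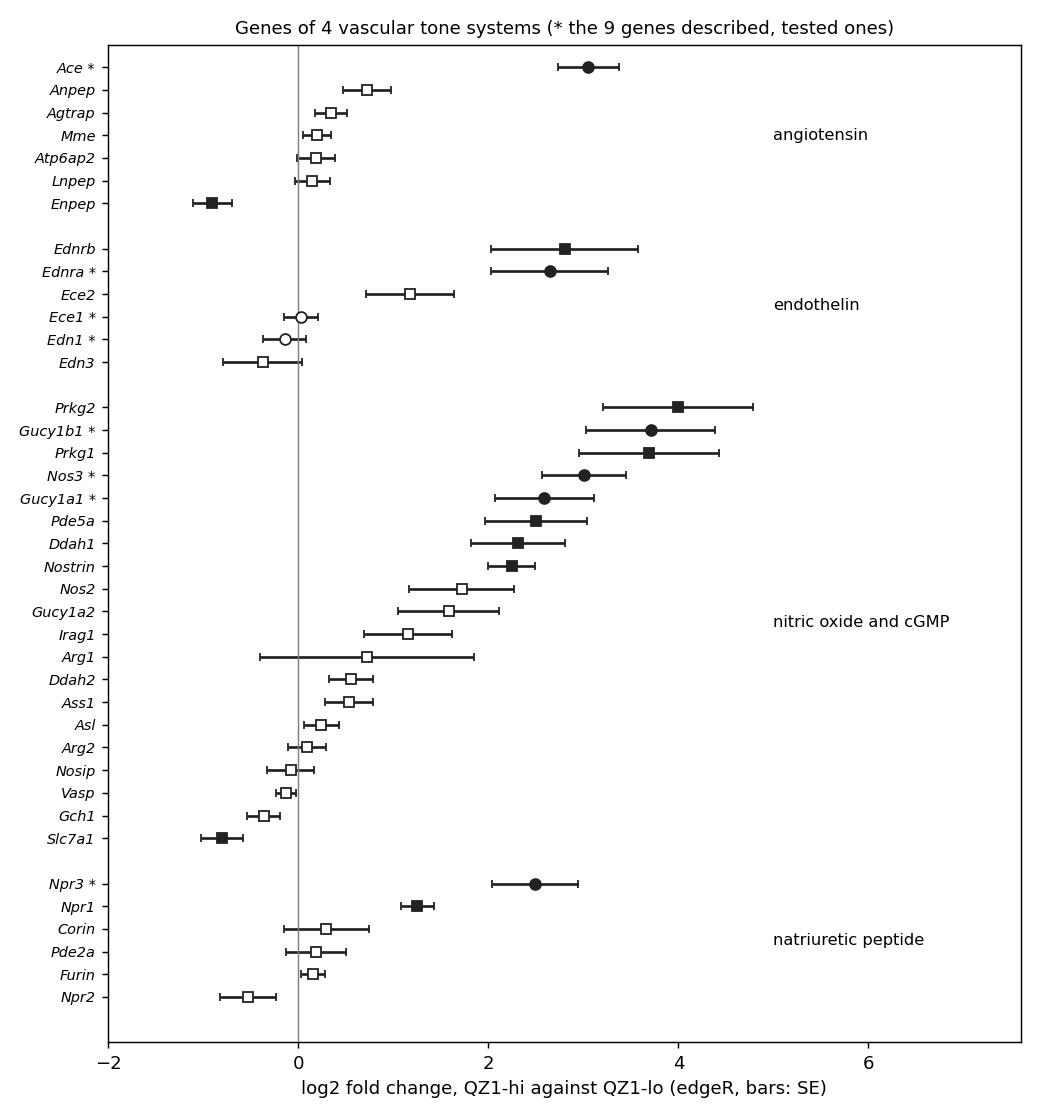
log2 fold change of QZ1-hi against QZ1-lo for tested genes of the 4 systems, ordered within each system; circles with an asterisk are the described genes, squares the other listed genes, filled symbols passed the test and bars are the SE. In the nitric oxide and cGMP block the filled symbols lie at 2.24 and above except Slc7a1 at -0.81, and Ece1 and Edn1 lie at 0.03 and -0.14.

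The sort separated many vascular transcripts, so each of the 8 tested genes was also set against the mean log2 CPM of the 8 endothelial markers and, separately, of the 8 pericyte markers in the same library. The marker means were 6.47 ± 0.62 in QZ1-hi and 3.09 ± 0.96 in QZ1-lo for endothelium, and 2.29 ± 0.15 and -0.01 ± 0.42 for pericytes. The 16 differences were tested by exact two-sided permutation with no adjustment, and 0.0286 is again the smallest p. Relative to endothelial markers, Ace differed by -0.26 (exact permutation p = 0.257) and Nos3 by -0.44 (exact permutation p = 0.571), with groups that overlapped. Gucy1a1 differed by -0.65 (exact permutation p = 0.400), Gucy1b1 by 0.65 (p = 0.457) and Ednra by -0.80 (p = 0.0571). These 5 genes had overlapping groups, except that Ednra was lower without overlap with the summed marker CPM in place of the mean (-0.77, exact permutation p = 0.0286).

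Npr3 was lower relative to the endothelial markers by 0.88 on the log2 scale (-0.88, exact permutation p = 0.0286), as were Edn1 (-3.54) and Ece1 (-3.37), each without overlap. Such a position was common, since 85.4% of all tested genes lay lower in QZ1-hi without overlap on this scale. Only 0.0193% lay higher, and none of the members did. Relative to pericyte markers, Gucy1b1 was higher by 1.72 without overlap (exact permutation p = 0.0286), which held for 0.667% of all tested genes. It was at 0.311 to 1.04 in QZ1-hi and -2.76 to 0.186 in QZ1-lo, a narrow gap. Its QZ1-lo libraries held only 1, 34, 21 and 8 counts, with 2 of them over the filter's minimum. The pericyte mean was itself low in QZ1-lo, at -0.01. Edn1 (-2.47) and Ece1 (-2.29) were again lower without overlap, as were 83.6% of all genes. Ace was higher by 0.81 with overlap (exact permutation p = 0.0571), and Nos3 (0.63), Gucy1a1 (0.42), Ednra (0.27) and Npr3 (0.20) overlapped. Without QZ1-lo replicate 3 or without QZ1-hi replicate 4 a second member lay higher without overlap.

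**Figure D3:**
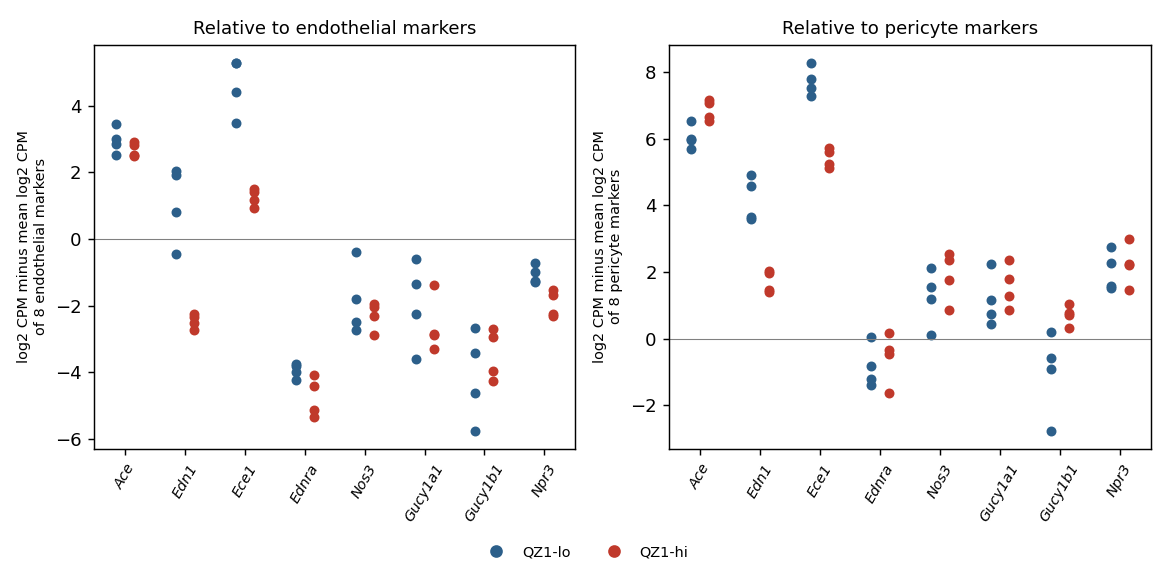
log2 CPM of each tested gene minus the mean log2 CPM of 8 endothelial markers (left) or 8 pericyte markers (right), 1 point per library, QZ1-lo in blue and QZ1-hi in red. Edn1 and Ece1 lie lower in QZ1-hi in both panels, and Gucy1b1 lies higher in QZ1-hi without overlap in the right panel.

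The other marker lists give the setting of these values, and their part was not tested. Markers of general capillary cells (5 of 5 higher), aerocytes (4 of 5), arterial cells (4 of 6), smooth muscle (4 of 8, with 1 lower), mesothelium (4 of 4) and platelets (3 of 4) were higher in QZ1-hi with summed levels that did not overlap. The aerocyte list includes Ednrb, one of the pathway genes described above. The platelet sum was 17.2 to 35.2 CPM against 3.79 to 8.87 CPM. Of 12 epithelial markers 9 were lower and 1 higher, with summed levels of 5746 to 10250 against 7026 to 10370 CPM. None of 7 tested leukocyte markers was called (3064 to 6515 against 2174 to 4312 CPM), nor was any of 4 erythroid markers, and no listed marker was at 0 in every library.

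The profiles of the members across libraries were also compared. For each tested gene the log2 CPM was centred on its own mean over the 8 libraries, and profiles were compared by their root mean square difference, as a description over libraries that share the sort and depth. This measure includes the size of the step between the groups, so genes with little change lie close together. Closeness on it does not show that genes varied together within a group. Edn1 and Ece1, which were not called, were the closest pair of members, at 0.214. Ednra and Npr3 followed at 0.384 and Ace and Npr3 at 0.441, while the paired subunits Gucy1a1 and Gucy1b1 stood 0.962 apart. Among all tested genes with a symbol, the 3 profiles nearest to Ace were those of Fgd5 (0.143), Nes (0.157) and Hecw2 (0.161). Sox17 (0.302), Selp (0.303) and Foxf2 (0.411) lay nearest to Nos3, and Kdr (0.239), Kitl (0.239) and Sema3f (0.262) nearest to Npr3. The receptor gene Ednra was nearest to Spon1 (0.220), Fkbp10 (0.270) and Egflam (0.276). Gucy1a1 lay nearest to Olfr1033 (0.396), Osr1 (0.414) and Arl4d (0.416), and Gucy1b1 nearest to Gli1 (0.477), Fam20a (0.495) and Ccl21a (0.519). Taken rank by rank, these distances were larger than for the other members. The distance of Foxf2 from Nos3, 0.411, was still close to those of Gucy1a1 and above that of Olfr1033. Ece1 had the closest match, Dapk3 at 0.0678, before Fnta (0.0816) and Vcl (0.103), and Edn1 lay nearest to Mrpl38 (0.120), Hcfc2 (0.132) and Cstf2 (0.156).

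**Figure D4:**
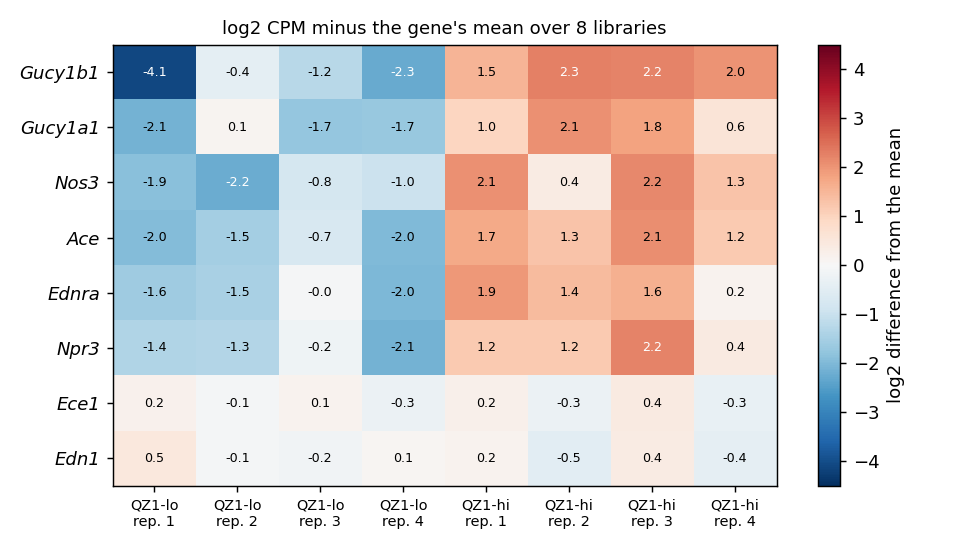
log2 CPM of the 8 tested genes minus each gene's mean over the 8 libraries, in colour from blue (below the mean) to red (above), with the value printed in each cell. The 6 called genes are above their mean in all 4 QZ1-hi libraries, while Ece1 and Edn1 stay near 0 in both groups; Gucy1b1 in QZ1-lo replicate 1 is the lowest cell.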

How the data were processed

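RNA-seq was analysed for 4 QZ1-hi and 4 QZ1-lo libraries, grouped by their labels. What the authors deposited are raw counts for each gene, keyed by Entrez gene number, for SMARTer stranded total RNA libraries run on a NextSeq500 and counted with Rsubread; the submitters' processing notes name the mm10 build and DESeq2. The aligner, annotation and strand setting are not given in the sources used here. A symbol was assigned to 25275 of 27179 genes from RefSeq names, and coordinates and exon lengths come from GENCODE M21 (GRCm38). Counts were filtered with filterByExpr (minimum count 10), scaled by TMM and tested with the edgeR 4.0.16 quasi-likelihood F test in R 4.3.3, with Benjamini-Hochberg adjustment over 15583 genes. Profiles used log2 CPM with a prior count of 2. Single values were tested by exact permutation over the 70 assignments of libraries.

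Alternatives were DESeq2 size factors, library size only, DESeq2 1.42.0, limma 3.58.1 voom, no filter, at least 10 counts in every library, removal of mitochondrial and ribosomal RNA genes, and leaving out each library. On simulated counts for this comparison (15322 genes), 23 of 100 genes changed by a log2 size of 1 and 94 of 100 changed by 2 were called, all with the right sign, and 6 unchanged genes were called. Every simulated gene had the common dispersion of 0.113, and genes of the lowest levels were not among those changed. These rates therefore do not hold for genes with a wider spread or a lower level.

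The 9 genes and all lists were chosen with earlier results of these data known. All 9 are named; of the 44 other pathway genes, those called and a preset list (Ednrb, Agtr1b, Nos1, Nos2, Agt, Prkg1, Pde5a, Gucy1a2, Npr1); and for each tested gene the 3 nearest profiles, leaving out predicted models. 1 further gene of the preset list is counted among the 44 but not reported here. No source used here says whether libraries came from separate mice, so p-values measure the spread between these libraries. Intervals and floors cover counting error only.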

Additional observations from a re-analysis of the deposited data

Results flagged for a closer look

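In 4 of the 22 groups of 4 libraries examined, 1 library stood apart from the others by Dixon's criterion. For independent, normally distributed values, chance alone gives about 1 in 20 groups. CPM values near 0 and genes of the same libraries do not meet that condition, so no excess is read from the count. For Agtr1a in QZ1-lo, replicate 4 was at 0.0409 CPM, a single count, with the others at 0, where any count at all would have met the criterion. For Ednra in QZ1-lo, replicate 3 was at 1.23 CPM with the others at 0.246 to 0.407. For Gucy1a1 in QZ1-lo, replicate 2 was at 6.02 CPM with the others at 1.22 to 1.64. The mean log2 CPM of the pericyte markers was 2.51 in QZ1-hi replicate 3 and 2.21 to 2.23 in the other QZ1-hi libraries.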

How the results depend on the processing

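The 6 called members stayed higher in QZ1-hi and past the threshold in every alternative that tested them. Requiring at least 10 counts in every library left out Ednra and Gucy1b1 and gave 4 members called. With no filter, and in some other alternatives, 7 members were called, the added one being Agtr1a. Edn1 and Ece1 passed in none. The log2 fold change of Ece1 was -0.40 with library size only and -0.14 to 0.17 when 1 library was left out, and that of Edn1 was -0.34 to 0.003964 when 1 library was left out. With library size only the median of all tested genes moved to -0.44, so that 882 genes were higher and 2509 lower against 1540 and 1280 with TMM. The number of further pathway genes called lower was 1 to 2 when 1 library was left out, since Slc7a1 lost its call. Limma-voom gave larger log2 fold changes for Gucy1b1 (4.79), Ednrb (4.08), Prkg1 (4.75) and Gucy1a2 (2.31). Nos2 passed with DESeq2 (adjusted p = 0.00985), with no filter (0.0371) and with at least 10 counts (0.0474), and Gucy1a2 with DESeq2 (0.0164), limma-voom (0.00949) and no filter (0.0463). Relative to pericyte markers, Npr3 was at -0.041 with a prior count of 0.5, and 2 members lay higher without overlap with summed marker CPM, against 1 to 2 when 1 library was left out. The cause of these changes was not tested. No paired analysis was possible from the labels, because replicate numbers follow accession order and no label pairs a QZ1-hi with a QZ1-lo library. Library numbers alternate between the groups, from 4591 in QZ1-hi and 4592 in QZ1-lo to 4597 and 4598. Whether neighbouring numbers came from the same lung is not stated in the sources used here. A fit with such pairs was not run, so the p-values take no account of any pairing. Depth limits the genes below the count filter, Agtr1a among them.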

Other observations

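Ren1, the gene of renin, was on the list of angiotensin genes but below the count filter. It had 1, 11, 2 and 2 counts in the QZ1-hi libraries and 0 in all 4 QZ1-lo libraries. Most of the 16 counts came from QZ1-hi replicate 2, and the gene was chosen for mention after its counts were seen. Agtr2, the type 2 angiotensin receptor gene, had 6 counts in QZ1-hi replicate 3 and 0 elsewhere, and was also chosen after its counts were seen. Other listed genes below the filter went the other way. Edn2 had 0 counts in all QZ1-hi libraries and 0, 12, 15 and 1 in the QZ1-lo libraries. Nppb, Nppc and Gucy1b2 were each counted in 1 QZ1-lo library only, at 13, 6 and 9 counts.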
